A study of Mus musculus with 8 samples.

Results

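Genes of the BMP and TGF-beta pathway were measured in cells with and without Sox2, sorted from mouse medulloblastomas, Hedgehog-driven tumours of the cerebellum. The members were all genes whose symbol matched a name of the pathway. These names cover BMP, GDF, TGF-beta and activin ligands (Bmp, Gdf, Tgfb, Inhb), receptors (Acvr and the Bmp and Tgfb receptors) and SMADs. They also cover latent TGF-beta binding proteins (Ltbp), Id genes, extracellular antagonists (such as Nog, Chrd and Fst) and genes named after these (such as Fstl). This rule took 69 of the 22180 genes tested: 25 ligands, 12 receptors, 8 SMAD proteins, 16 extracellular antagonists and modulators, 5 targets and 3 associated intracellular proteins.

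Both groups came from mice that were Patched1+/- (CD1) and carried a Sox2eGFP reporter (B6 parents), were given 3 Gy of ionizing radiation at birth, and were over 70 days old and showing signs of a brain tumour when it was taken. Cells carrying CD45 or Ter119 were depleted, and the rest were separated by eGFP into a Sox2-positive fraction and a Sox2-negative fraction. Each array held RNA pooled from the sorted cells of 3 tumours, and there were 4 such pools in each fraction. The Sox2-negative cells thus carry the same Patched1 allele, reporter and irradiation, and there was no group of normal cerebellum. The fractions are mixtures of whatever cells passed the sort, so in these bulk samples more cells of a type and more RNA per cell cannot be told apart. Values are log2 signals per probe set, as the authors deposited them after RMA, which sets all arrays to a common distribution. A difference of 1 on this scale is a 2-fold difference.

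The ligands of this family are secreted dimers that assemble type I and type II receptor kinases. BMP receptors phosphorylate Smad1, Smad5 and Smad9, receptors for TGF-beta and activin phosphorylate Smad2 and Smad3, and all of these enter the nucleus with Smad4, while Smad6 and Smad7 inhibit the pathway. Noggin, chordin and follistatin bind ligands outside the cell, and the Id genes are classical targets of BMP signalling. In the cerebellum BMPs are known to oppose the Hedgehog-driven division of granule neuron progenitors, and in the oligodendrocyte lineage they are known to favour astrocytes over oligodendrocytes.

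The reporter sort was reflected in Sox2 itself, which was 3.13-fold higher in the Sox2-positive fraction (log2 level 5.94 ± 0.34 against 4.30 ± 0.29, SD, n = 4 each; limma adjusted p = 2.53e-05). The table has no detection call, so dim values were judged by the receptors for odours and pheromones, which are genes of sensory neurons. The upper quartile of the mean log2 level over 1390 of these was 5.80, and a mean below it is called dim. The Sox2-negative mean of Sox2 was dim, so its fold can be understated. All 9 measured markers of granule neuron progenitors fell in Sox2-positive cells, and all 9 of oligodendrocyte progenitors rose (limma).

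The ligands Bmp7 and Bmp4 and 4 genes listed as extracellular regulators were higher in Sox2-positive cells. Of these 4, Fstl4 and Fstl5 were listed as genes named after follistatin. No receptor and no Id gene passed the test. Of the ligands 8% passed, near the 8.47% of all genes tested. With 12 receptors and 4 Id genes, 0 of each does not stand apart from that share. Of these, 5 receptors and 3 Id genes were dim in both fractions. Of the 69 members, 9 were higher and 0 lower (limma, Benjamini-Hochberg adjusted p under 0.05), where 5.96% of all genes tested were higher and 2.52% lower (8.47% in all). At an unadjusted p under 0.05, 14 members were higher and 5 lower, against 2305 and 2149 of the 22180 genes tested. The median log2 difference of the members was -0.01, against -0.03 over all genes. Bmp7 and Bmp4 were the 2 members that differed at least 2-fold. The other 7 that rose were Chrdl1, Tgfb1i1, Fstl4, Fstl5, Bmp1, Smad5 and Tgfbrap1. With quantile normalization the split was 8 higher to 2 lower, where 1282 of all genes were higher and 847 lower. With the replicate number as a block it was 10 higher to 2 lower, where 1572 of all genes were higher and 768 lower. For 15 members the fractions did not overlap, 11 higher and 4 lower in Sox2-positive cells, a pattern shown by 13.7% of all genes (7.63% higher and 6.07% lower). Of the members, 30 had a mean below 5.80 in both fractions and 6 in 1 fraction, and fold differences of dim genes can be understated.

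**Figure D1:**
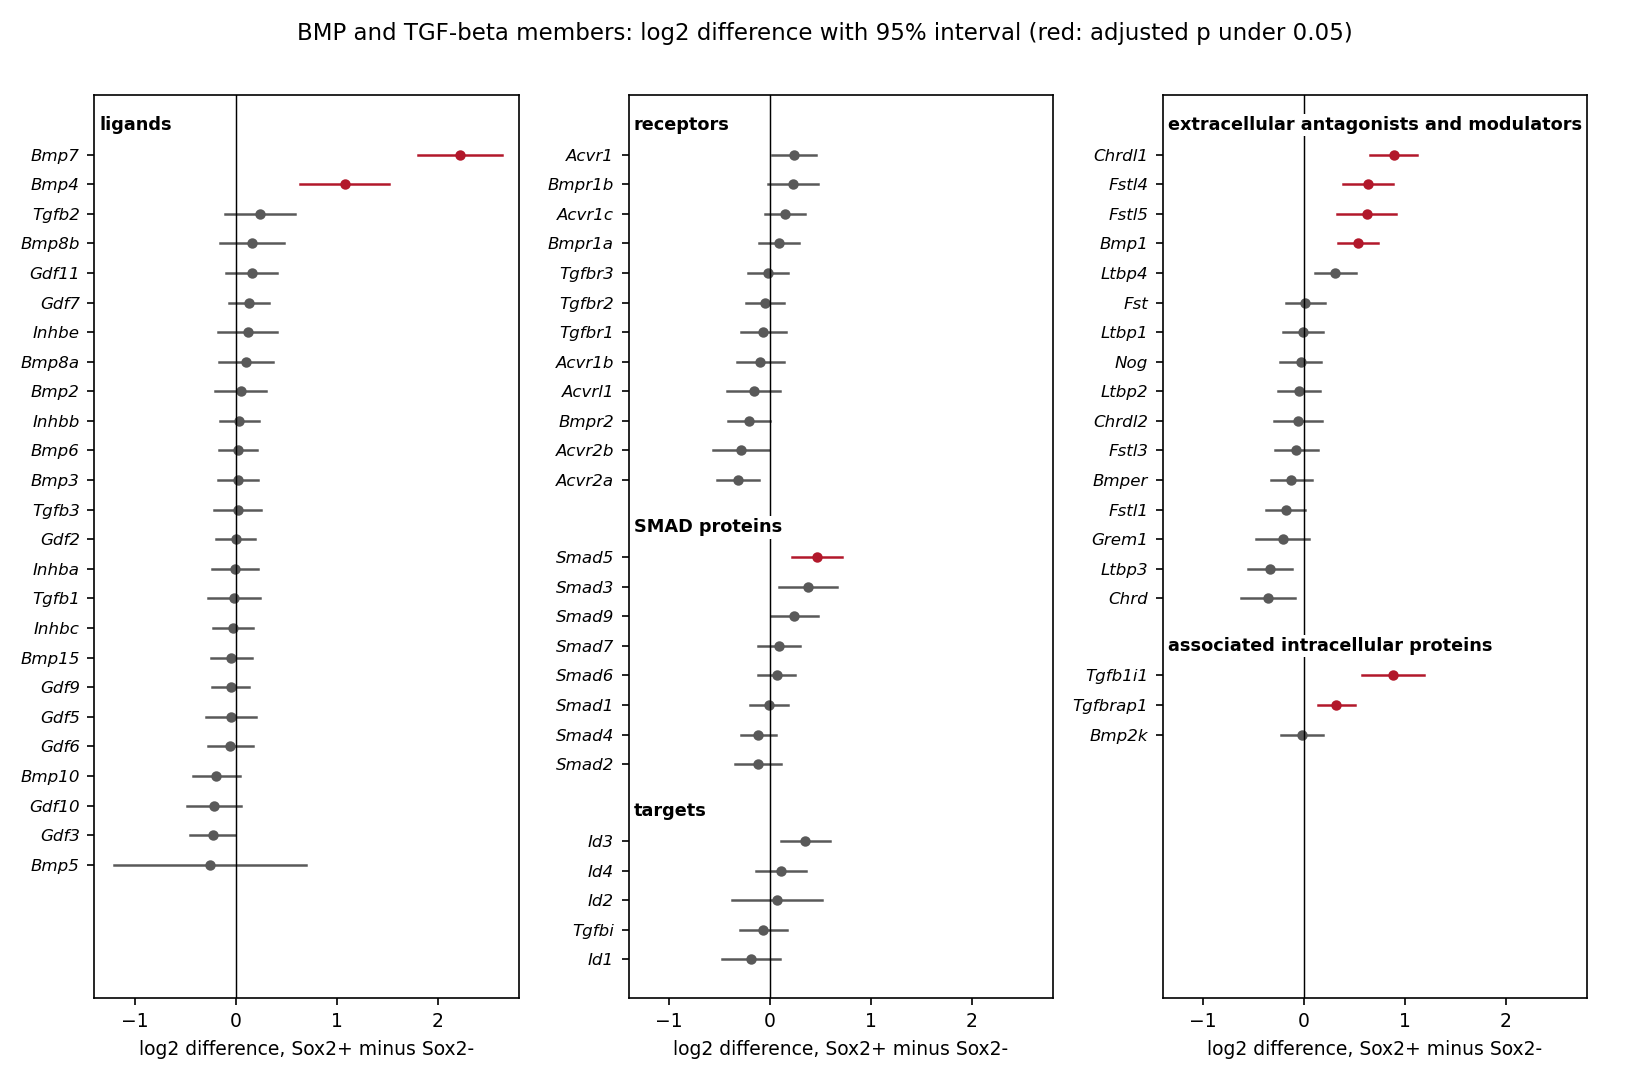
Log2 differences of the 69 members (x axis, Sox2-positive minus Sox2-negative) by role, with points for the estimate and bars for the 95% interval of the limma fit, n = 4 arrays per fraction, red where the adjusted p was under 0.05. Bmp7 and Bmp4 stand apart from the other ligands, none of the 12 receptors is red, and Bmp5 has the widest interval.

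Among the ligands, Bmp7 had the largest difference of any member. Its log2 levels in Sox2-positive pools 1 to 4 were 7.96, 9.05, 8.64 and 8.63, and in Sox2-negative pools 1 to 4 they were 6.48, 5.94, 6.48 and 6.48. The lowest Sox2-positive pool lay well above the highest Sox2-negative pool. Bmp7, a BMP of the developing brain and kidney, was thus 4.67-fold higher (95% interval 3.50 to 6.24; log2 difference 2.22, SE 0.19, limma adjusted p = 5.42e-06).

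Bmp4, a BMP of dorsal neural tissue, had log2 levels of 6.13, 7.26, 6.26 and 6.51 in the Sox2-positive pools and 5.29, 5.20, 5.61 and 5.74 in the Sox2-negative pools. The fractions did not overlap, and Sox2-positive pool 2 was the highest. Bmp4 was 2.11-fold higher (95% interval 1.55 to 2.87; log2 difference 1.08, SE 0.21, limma adjusted p = 0.00406). The Sox2-negative mean of Bmp4 (5.46) was dim.

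The other 23 ligands did not pass the test, and their log2 differences ran from -0.26 to 0.24. Bmp2, the closest relative of Bmp4, had log2 means of 4.83 ± 0.06 with Sox2 and 4.78 ± 0.25 without (SD, n = 4), with a 95% interval of the difference from -0.20 to 0.30. For the TGF-beta ligands the intervals were -0.27 to 0.24 for Tgfb1, -0.11 to 0.58 for Tgfb2 and -0.21 to 0.25 for Tgfb3. Of these, Tgfb2 had log2 levels of 7.23 to 7.66 in Sox2-positive pools and 6.92 to 7.72 in Sox2-negative pools, which overlapped. For 13 of the 25 ligands both means were below 5.80, among them Bmp2, Bmp6, Tgfb1, Inhba and Inhbb. Gdf10, a ligand of Bergmann glia and itself one of the glial markers used here, had a difference of -0.21 (95% interval -0.48 to 0.05).

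Bmp5 varied more between pools than between fractions. Its log2 levels were 7.33, 6.54, 7.19 and 5.35 in Sox2-positive pools 1 to 4 and 7.78, 6.71, 7.28 and 5.67 in Sox2-negative pools 1 to 4. Pools of equal number were close, pool 1 was highest and pool 4 lowest in both fractions, and the SD between pools was 0.90 and 0.91. A larger spread within fractions was found for 7 of the 22180 genes. Bmp5 was lower in the Sox2-positive array of all 4 numbers, but the difference did not pass the test (log2 difference -0.26, SE 0.44, limma adjusted p = 0.813). With the replicate number as a block its SE was 0.09 and its adjusted p 0.122.

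**Figure D2:**
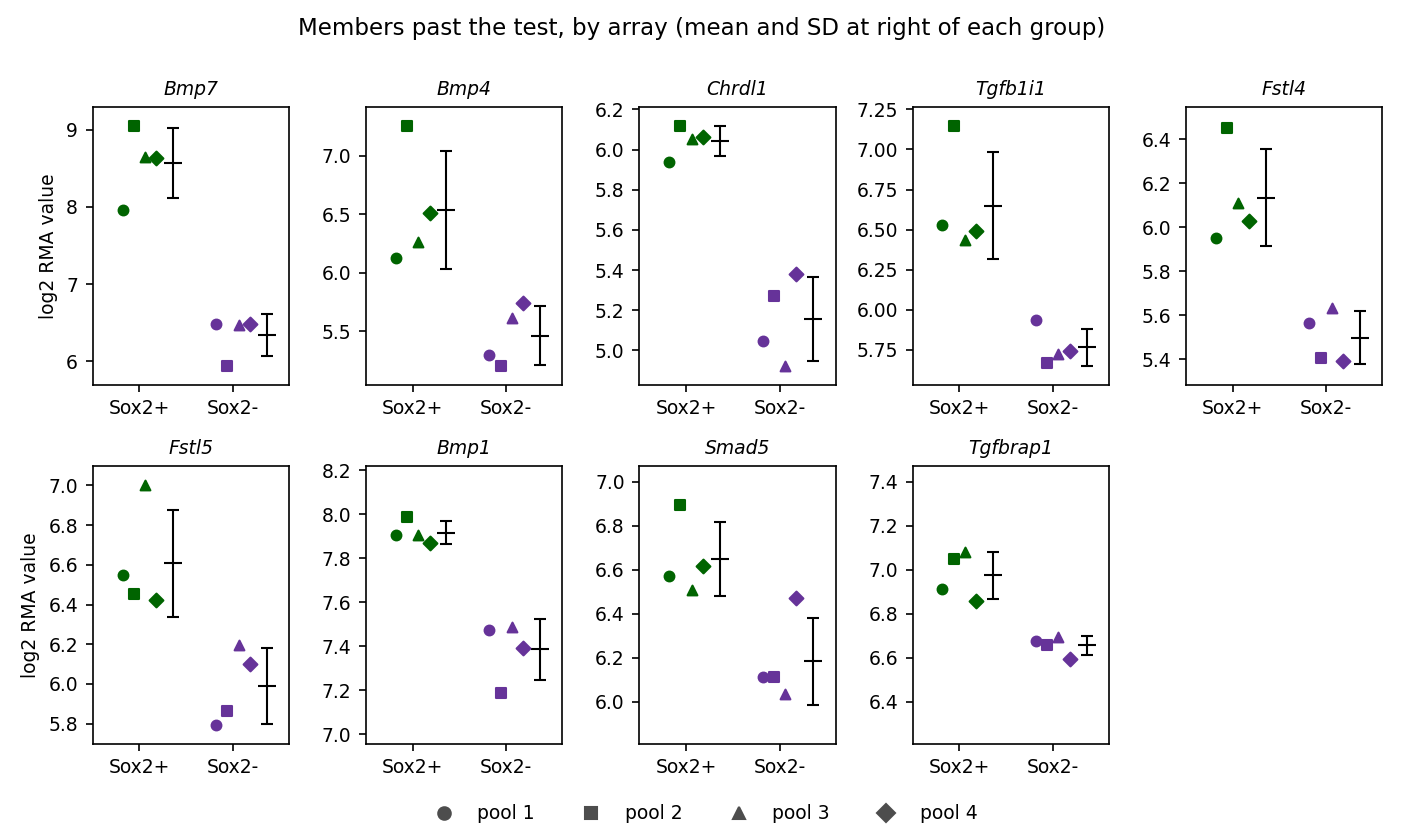
Log2 values of the 9 members past the test (y axis, a separate range for each gene) in the Sox2-positive (green) and Sox2-negative (purple) arrays, with a symbol for each pool number and the mean ± SD (n = 4) to the right of each fraction. In every panel the 4 Sox2-positive values lie above the 4 Sox2-negative values, and for Smad5 the gap to Sox2-negative pool 4 is small.

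None of the 12 receptors passed the test (0 of 12 with limma), where 8.47% of all genes did. At an unadjusted p under 0.05, where 2305 of 22180 genes were higher and 2149 lower, 1 receptor was higher and 2 were lower. Their log2 differences ran from -0.32 to 0.24, and their 95% intervals together spanned -0.56 to 0.48. Bmpr1a, a type I receptor for BMPs, had levels of 7.85, 8.05, 7.88 and 7.71 in Sox2-positive pools and 7.83, 7.83, 7.73 and 7.74 in Sox2-negative pools, which overlapped. Bmpr1b, another BMP type I receptor, was dim in both fractions (4.99 ± 0.16 and 4.76 ± 0.20). Bmpr2, a type II receptor for BMPs, was at 10.30 ± 0.16 and 10.51 ± 0.08 (95% interval of the difference -0.42 to 0.00). Tgfbr1 and Tgfbr2, the type I and type II receptors for TGF-beta, had differences of -0.06 and -0.05.

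Acvr1 and Acvr2a were the receptors with the largest differences of either sign. For Acvr1, a type I receptor that binds Bmp7 among others, the difference was 0.24 (95% interval 0.02 to 0.46, limma adjusted p = 0.196). Acvr2a, a type II receptor for activins and BMPs, was the receptor whose fractions did not overlap, with 6.45, 6.55, 6.63 and 6.63 in Sox2-positive and 6.80, 7.09, 6.87 and 6.77 in Sox2-negative pools. Its log2 difference was -0.32 (SE 0.10, limma adjusted p = 0.0584). It passed with quantile normalization (0.0176) and with dimmer genes left out (0.0405).

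Of the 8 SMAD genes, 1 rose, where 5.96% of all genes did. Smad5, which carries the BMP signal, had log2 levels of 6.57, 6.89, 6.51 and 6.62 in Sox2-positive and 6.11, 6.11, 6.03 and 6.47 in Sox2-negative pools. Sox2-negative pool 4 lay just below the lowest Sox2-positive pool. The gene was 1.38-fold higher (95% interval 1.16 to 1.64, limma adjusted p = 0.0236). Leaving out pool 2 or 4 of the Sox2-positive fraction, or pool 1, 2 or 3 of the other, took the adjusted p to between 0.0511 and 0.0837, while the log2 difference was 0.38 to 0.47, against 0.47 with all arrays.

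The other SMAD genes had log2 differences from -0.12 to 0.38. Smad1, which carries the same signal as Smad5, was at 6.35 ± 0.01 and 6.35 ± 0.13, with an interval of the difference from -0.20 to 0.18. Smad3, which carries the signal of TGF-beta and activins, had a difference of 0.38 (95% interval 0.09 to 0.67, limma adjusted p = 0.115), and its fractions overlapped because Sox2-negative pool 1 (6.64) lay above Sox2-positive pools 1 and 2 (6.63 each). The shared partner Smad4 had a difference of -0.11. The inhibitory members Smad6 and Smad7, themselves induced by the pathway, had differences of 0.07 and 0.09 and were dim in both fractions.

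Of the 16 genes listed as extracellular regulators, 4 were higher and 0 lower (limma), against 5.96% and 2.52% of all genes. At an unadjusted p under 0.05, 5 were higher and 2 lower, against 2305 and 2149 of 22180 genes. Chrdl1, a chordin-like protein that binds BMPs such as Bmp4, had log2 levels of 5.94, 6.12, 6.05 and 6.06 in Sox2-positive and 5.05, 5.27, 4.92 and 5.38 in Sox2-negative pools. The Sox2-positive pools were close together and apart from the others, a 1.85-fold difference (95% interval 1.58 to 2.17, limma adjusted p = 0.000103). Its Sox2-negative mean (5.15) was below the dim guide.

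Bmp1 is in name only a BMP, being a tolloid protease that cleaves chordin and procollagen. Its levels were 7.91, 7.99, 7.91 and 7.87 in Sox2-positive and 7.48, 7.19, 7.49 and 7.39 in Sox2-negative pools, a 1.44-fold difference (limma adjusted p = 0.00196). The follistatin-like genes Fstl4 and Fstl5, which the rule took by symbol, were also higher. Fstl4 was at 6.13 ± 0.22 against 5.50 ± 0.12, a 1.55-fold difference (adjusted p = 0.00264) over a Sox2-negative mean that was dim. Fstl5 was at 6.61 ± 0.27 against 5.99 ± 0.19, a 1.53-fold difference (adjusted p = 0.0105).

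The classical antagonists did not pass the test. Nog, which encodes noggin, was dim in both fractions (4.57 ± 0.09 and 4.60 ± 0.14, 95% interval of the difference -0.24 to 0.17). Fst, which encodes follistatin, an antagonist of activins, was at 6.13 ± 0.05 and 6.12 ± 0.12 (interval -0.18 to 0.20). Chrd, which encodes chordin, had levels of 6.15, 5.56, 6.11 and 5.97 in Sox2-positive pools, all below the 6.32, 6.20, 6.28 and 6.43 of Sox2-negative pools. Its log2 difference of -0.36 (SE 0.12) did not pass (limma adjusted p = 0.0999; 0.0468 with the replicate block).

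The latent TGF-beta binding proteins hold TGF-beta in the matrix in an inactive form, and among them Ltbp3 and Ltbp4 had differences of opposite sign without overlap between the fractions. Ltbp3 had a log2 difference of -0.34 (SE 0.10, limma adjusted p = 0.0581; 0.0469 with the replicate block), at 7.36 ± 0.14 against 7.69 ± 0.14. Ltbp4 had one of 0.31 (SE 0.09, limma adjusted p = 0.0597; 0.0494 with the replicate block), at 7.01 ± 0.07 against 6.70 ± 0.14. Ltbp1 and Ltbp2 were dim in both fractions, with differences of -0.01 and -0.05. Fstl1 was the remaining member of this role whose fractions did not overlap (log2 difference -0.18, limma adjusted p = 0.282).

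Of the 3 associated intracellular proteins, 2 rose, where 5.96% of all genes did. Tgfb1i1, a focal adhesion protein and nuclear receptor coactivator induced by TGF-beta, had Sox2-positive levels of 6.53, 7.15, 6.43 and 6.49 and Sox2-negative levels of 5.93, 5.66, 5.72 and 5.74. Sox2-positive pool 2 was the highest and all 4 Sox2-positive pools lay above the rest, a 1.85-fold difference (95% interval 1.49 to 2.28, limma adjusted p = 0.00111). Its Sox2-negative mean (5.77) was dim. Tgfbrap1, a receptor-associated protein that also serves in endosomal trafficking, was 1.25-fold higher (6.98 ± 0.11 against 6.66 ± 0.04, adjusted p = 0.0353). That call ended without any 1 of the arrays except Sox2-positive pool 4, and with quantile normalization (adjusted p = 0.0505 to 0.112). Bmp2k, a kinase named for its induction by Bmp2, had a difference of -0.02.

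The Id genes, which encode inhibitors of basic helix-loop-helix factors, did not pass the test (0 of 4 with limma, against 8.47% of all genes). At an unadjusted p under 0.05, 1 was higher and 0 lower, against 2305 and 2149 of 22180 genes. Id3 came nearest, with 5.17, 5.12, 5.53 and 4.96 in Sox2-positive and 4.87, 4.79, 4.83 and 4.89 in Sox2-negative pools. These did not overlap, but both means were below the dim guide and the 1.28-fold difference had a limma adjusted p of 0.0771, which was 0.0390 without Sox2-positive pool 4. Id1 had levels of 5.18, 5.45, 5.41 and 5.63 in Sox2-positive and 5.35, 5.57, 5.52 and 5.96 in Sox2-negative pools, lower in the Sox2-positive array of all 4 numbers (log2 difference -0.19, 95% interval -0.47 to 0.10).

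Id2 and Id4 are the Id genes known to act in the oligodendrocyte lineage. Id2 was well above the dim guide in all arrays. Its Sox2-positive levels were 8.41, 8.40, 9.47 and 8.88 and its Sox2-negative levels 8.45, 8.63, 9.05 and 8.75, with pool 3 highest in both fractions. Its 95% interval of the difference was -0.37 to 0.51, wider than those of the other Id genes. Id4 was dim, at 5.33 ± 0.10 and 5.22 ± 0.22 (interval -0.13 to 0.35). Tgfbi, a matrix protein induced by TGF-beta, was dim too and had a difference of -0.07.

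**Figure D3:**
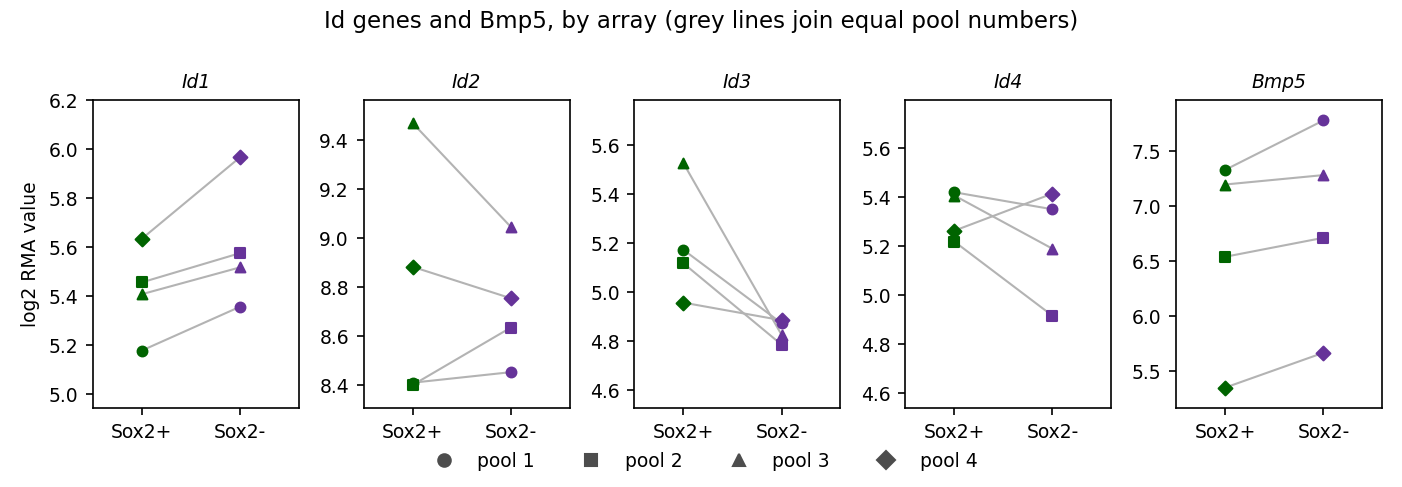
Log2 values (y axis, a separate range for each gene) of Id1 to Id4 and Bmp5 in the Sox2-positive (green) and Sox2-negative (purple) arrays, with a symbol for each pool number and grey lines joining equal numbers. The lines of Bmp5 run nearly parallel from 7.33 to 7.78 down to 5.35 to 5.67, while Id3 is higher in all 4 Sox2-positive arrays.

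Promoter sequences are shown for Bmp4, a ligand that rose, and for the signal carrier Smad5 and the targets Id2 and Id4, to show where GGCGCC lies in them, a GC-rich element that Smad1 and Smad5 are known to bind. They are the 250 bases upstream of the annotated start in RefSeq (GRCm38.p6), 5′ to 3′ on the strand of the gene, with GGCGCC in capitals. Bmp4 lies at chr14:46390670-46390919 (minus strand), Smad5 at chr13:56702802-56703051 (plus strand, one of 3 annotated starts), Id2 at chr12:25096093-25096342 (minus strand) and Id4 at chr13:48260866-48261115 (plus strand).
Bmp4: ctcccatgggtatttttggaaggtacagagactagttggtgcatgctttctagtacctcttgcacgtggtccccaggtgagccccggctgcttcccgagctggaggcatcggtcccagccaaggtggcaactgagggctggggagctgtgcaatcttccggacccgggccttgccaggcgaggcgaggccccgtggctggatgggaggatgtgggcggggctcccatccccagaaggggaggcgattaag
Smad5: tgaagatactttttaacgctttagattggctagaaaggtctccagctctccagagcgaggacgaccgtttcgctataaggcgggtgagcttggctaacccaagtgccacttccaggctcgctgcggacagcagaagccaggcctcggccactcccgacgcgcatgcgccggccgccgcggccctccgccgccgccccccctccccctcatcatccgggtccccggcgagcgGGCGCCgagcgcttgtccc
Id2: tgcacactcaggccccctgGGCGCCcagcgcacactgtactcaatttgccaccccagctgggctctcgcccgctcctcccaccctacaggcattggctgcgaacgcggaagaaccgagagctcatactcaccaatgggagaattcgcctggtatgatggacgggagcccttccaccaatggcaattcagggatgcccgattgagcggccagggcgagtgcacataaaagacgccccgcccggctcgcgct
Id4: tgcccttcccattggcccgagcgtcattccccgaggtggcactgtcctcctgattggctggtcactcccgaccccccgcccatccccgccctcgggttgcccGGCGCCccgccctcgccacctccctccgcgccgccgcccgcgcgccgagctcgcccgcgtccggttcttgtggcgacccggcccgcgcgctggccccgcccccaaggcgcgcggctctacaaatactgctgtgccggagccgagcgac

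GGCGCC, which reads the same on both strands, was found once in the printed window of Smad5, ending 13 bases before the start site, once in that of Id2, ending 225 bases before it, and once in that of Id4, ending 142 bases before it. The letters did not occur in the windows of Bmp4 and Id3, nor in those of the other 2 annotated starts of Smad5. Promoter windows were matched by symbol for 49 of the 69 members, and 13 of these (26.5%) held the element in at least 1 window, against 14.7% of 15378 protein-coding genes tested that had a window. Of the 9 members that rose, 5 had a window, and Smad5 and Tgfbrap1 held it. The SOX core motif ACAATG, searched on both strands, was in 3 of the 49 members (Bmpr1b, Fstl3 and Ltbp1; 6.12%) and in 10.0% of the same protein-coding genes. A match of letters is a description of these windows and not of binding.

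Other genes of the pathway, whose symbols the rule does not take, were drawn from 4 lists of ligands and co-receptors, extracellular regulators, intracellular regulators and target genes. Of 73 measured, 4 were higher and 4 lower (limma), against 5.96% and 2.52% of all genes. With the replicate number as a block 7 were higher and 6 lower, against 1572 and 768 of the 22180 genes tested. The genes added by the block were Cdkn1a, Fbn2 and Wwp1 (higher) and Hey1 and Tob1 (lower).

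The genes that rose most were the subunits of integrin alpha-v beta-8, a receptor known to release active TGF-beta from its latent complex. Itgav had Sox2-positive levels of 9.27, 9.91, 9.86 and 9.62 and Sox2-negative levels of 7.58, 8.04, 7.41 and 7.60. Itgb8 had Sox2-positive levels of 8.25, 8.86, 8.74 and 8.31 and Sox2-negative levels of 6.95, 7.17, 6.67 and 6.91. Both were apart without overlap, 4.03-fold higher for Itgav (95% interval 3.20 to 5.07, limma adjusted p = 1.63e-06) and 3.06-fold higher for Itgb8 (2.47 to 3.81, adjusted p = 8.01e-06). A second, dimmer probe set of Itgav had a log2 difference of -0.12 that did not pass, and the mean of both sets gave 0.95 in place of 2.01. The other integrin subunits of the list, Itgb5 and Itgb6, did not pass, with differences of 0.21 and -0.16.

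Of the 20 extracellular regulators measured, 3 were higher and 1 lower, against 5.96% and 2.52% of all genes. Besides the integrin subunits, Vwc2, a secreted BMP antagonist of neural tissue, was 1.36-fold higher (5.17 ± 0.07 against 4.73 ± 0.24, dim in both; limma adjusted p = 0.0272), which did not pass when pool 1, 2 or 3 of the Sox2-positive or pool 1, 3 or 4 of the other fraction was left out (0.0502 to 0.0920). Tll1, a tolloid protease of the same family as Bmp1, fell by 0.48 on the log2 scale, the opposite direction to Bmp1. Its levels were 6.10, 5.95, 6.13 and 6.02 in Sox2-positive and 6.56, 6.82, 6.38 and 6.36 in Sox2-negative pools (SE 0.11, limma adjusted p = 0.0127).

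Of the 13 other ligands, co-receptors and decoy receptors, 0 were higher and 1 lower (limma), against 5.96% and 2.52% of all genes. At an unadjusted p under 0.05, 1 was higher and 3 were lower, against 2305 and 2149 of 22180 genes. Rgmb, a BMP co-receptor, had Sox2-positive levels of 7.47, 7.52, 7.53 and 7.57 and Sox2-negative levels of 8.10, 8.25, 8.13 and 7.76. It fell by 0.54 on the log2 scale without overlap between the fractions (SE 0.11, limma adjusted p = 0.00487). Bambi, a decoy receptor without kinase activity, did not pass (difference 0.23, 95% interval 0.01 to 0.46, limma adjusted p = 0.235).

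Of the 25 intracellular regulators, 1 was higher and 2 lower, against 5.96% and 2.52% of all genes. Nedd4l, a ubiquitin ligase that marks activated Smad2 and Smad3 for breakdown among other substrates, had Sox2-positive levels of 8.22, 8.12, 8.20 and 8.09 and Sox2-negative levels of 8.88, 9.01, 9.33 and 8.83. It fell by 0.85 on the log2 scale (SE 0.11, limma adjusted p = 0.000171), to 0.553 of its Sox2-negative level. Tgif1, a corepressor that binds Smad2 and Smad3, fell by 0.45 (6.76 ± 0.15 against 7.21 ± 0.12, adjusted p = 0.0122). Ctdsp1, a phosphatase that acts on SMAD proteins, was 1.30-fold higher (adjusted p = 0.0292) over a dim Sox2-negative mean, and did not pass when pool 2, 3 or 4 of the Sox2-positive or pool 1 or 4 of the other fraction was left out (0.0516 to 0.0932).

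Of the 15 further target genes, 0 were higher or lower (limma), where 8.47% of all genes were. At an unadjusted p under 0.05, 2 were higher and 1 lower, against 2305 and 2149 of 22180 genes. Cdkn1a, a cell cycle inhibitor induced by TGF-beta and by p53, was nearest, with a log2 difference of 0.53 (SE 0.16, limma adjusted p = 0.0530; 0.0155 with the replicate block). Hey1, a target of Notch and BMP signalling, had one of -0.37 (adjusted p = 0.167; 0.0489 with the block). Msx2, Atoh8, Snai1 and Snai2, also known as BMP or TGF-beta targets, did not pass.

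**Figure D4:**
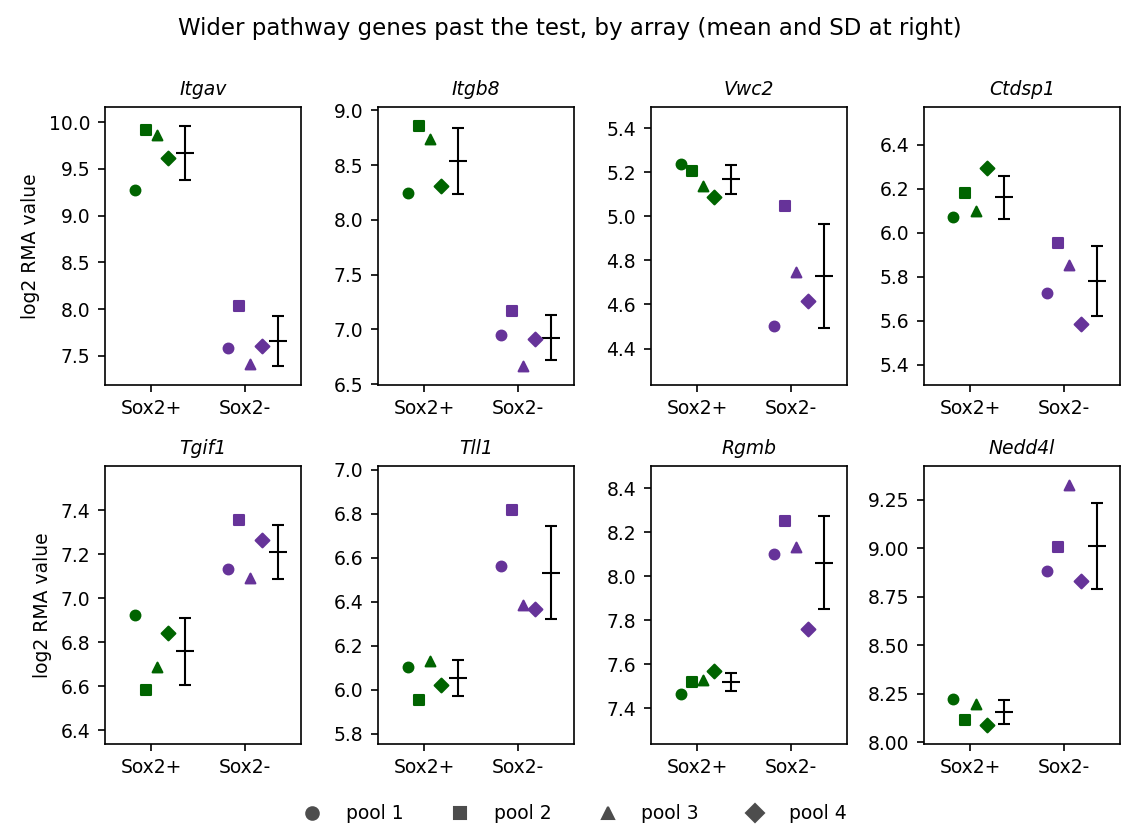
Log2 values (y axis, a separate range for each gene) of the 8 wider pathway genes past the test in the Sox2-positive (green) and Sox2-negative (purple) arrays, with a symbol for each pool number and the mean ± SD (n = 4) to the right of each fraction. Itgav and Itgb8 show the widest gap upwards and Nedd4l the widest downwards, without overlap between fractions in any of the panels.

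Many markers of glial cells were higher in the Sox2-positive fraction. For oligodendrocyte progenitors the summed linear level of the 9 markers ranged from 5272 to 7593 in the Sox2-positive arrays and from 956 to 1064 in the Sox2-negative arrays. Of 11 markers of astrocytes and Bergmann glia 6 were higher (summed level 1442 to 2509 against 762 to 829), and of 7 of mature oligodendrocytes 4 were higher (805 to 2110 against 492 to 561). All 9 markers of granule neuron progenitors were lower (2198 to 2523 against 3821 to 4815). Values here did not reach 0 (lowest log2 value 2.51), so a level above 0 does not mean that a marker was detected. The part of these cell types in the differences of the pathway genes was not tested.

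Cells of vessels, meninges, choroid plexus and blood also use this pathway, and their markers did not rise as groups. Of 11 endothelial markers 0 passed (summed level 414 to 439 in Sox2-positive against 430 to 473 in Sox2-negative arrays), with 9 of 11 dim in both fractions. Of 9 markers of pericytes and smooth muscle 1 passed, Rgs5 (567 to 615 against 578 to 632). For meningeal fibroblasts 0 of 8 passed (514 to 632 against 542 to 585), for choroid plexus 0 of 4 (297 to 457 against 315 to 858), and for microglia and macrophages 0 of 12 (659 to 700.3 against 629 to 739.5). For lymphocytes 0 of 7 passed (263 to 295 against 260 to 296) and for red blood cells 0 of 2 (86.3 to 88.3 against 80.5 to 87.3). All 7 lymphocyte and 2 red blood cell markers were dim in both fractions. So were 6 microglial, 4 pericyte or smooth muscle, 3 fibroblast and 1 choroid plexus markers. At an unadjusted p under 0.05, Rgs5 was higher, while 1 endothelial, 1 pericyte, 2 choroid plexus and 2 microglial markers were lower (limma).

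Sox2-positive pool 2 had the highest of the 4 Sox2-positive values for 7 of the 9 members that rose, and Sox2-positive pool 3 for the other 2. Over all 1321 genes that were higher, the same pools were highest for 46.6% and 43.8%. Pool 2 also had the highest summed levels of the oligodendrocyte progenitor markers (7593) and of the mature oligodendrocyte markers (2110). Pool 3 had the highest of the astrocyte and Bergmann glia markers (2509). A link between these sums and the members was not tested. Without Sox2-positive pool 2, 7 of the 9 members kept their call, all except Smad5 and Tgfbrap1.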

How the data were processed

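Affymetrix arrays were made from 8 pools of sorted cells, 4 per fraction. The authors deposited log2 values per probe set, made with Expression Console (1.2.0.20) and RMA per the submitters' processing notes. Their range of 2.51 to 13.6 is that of a log2 scale, and the genome build of the probe annotation is not given in the sources used here. RMA compresses differences of dim genes and removes differences in total RNA per cell.

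Of 41345 probe sets, 23521 had 1 gene symbol in the platform annotation, 1814 had several and 16010 were unnamed. By Entrez identifier 23328 matched a RefSeq gene table (GRCm38.p6), and 0 symbols changed. For each gene the single-symbol probe set with the highest mean over 8 arrays was used, giving 22180 genes with no filter on dim genes. Of the members, Gdf5 has 2 such sets, and neither passed. Sequences came from a RefSeq promoter table.

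Tests were made by limma (3.58.1; R 4.3.3; group as the only term, eBayes defaults, two-sided), with Benjamini-Hochberg adjustment over all 22180 genes, threshold 0.05, and tested on simulated data. P-values measure the spread between pools of 3 tumours, and the number of arrays limits the precision. Members, lists and tests were chosen with earlier results of these data known. Genes named were the members past the test, the largest difference in each role, 24 core genes taken in every case, and up to 3 wider genes per list and direction past the test. Bmp5, Fbn2, Wwp1, Hey1, Tob1, Cdkn1a, Bambi and the members whose fractions did not overlap were named after their values were seen. Other genes named, such as Gdf10, Smad4, Smad7, Tgfbi, Itgb5, Itgb6 and the genes of outlying arrays, were not all covered by this rule either.

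The labels give both fractions the numbers 1 to 4 without saying that they share tumours. With each gene centred in each fraction, arrays of equal number correlated across genes at 0.164, 0.114, 0.177 and 0.241. Each Sox2-positive array correlated most with the Sox2-negative array of its own number, but Sox2-negative pool 2 did not. The highest correlation of unequal numbers was 0.161 (Sox2-positive pool 3 with Sox2-negative pool 2), above the 0.114 of pool 2. A pairing by number thus rests on the data alone and is uncertain, and the main fit did not use it. The block was an alternative fit, beside leaving out each array, quantile normalization, a variance trend, array weights, the mean of probe sets and leaving out dimmer genes (mean below the median of all genes, 5.86).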

Additional observations from a re-analysis of the deposited data

Results flagged for a closer look

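In 6 of 154 groups of 4 arrays examined (69 members and 8 wider genes in each fraction), 1 array lay apart from the other 3, by Dixon's test at its 95% critical value. Chance gives about 1 in 20 such groups. Bmp7 in Sox2-negative pool 2 was at 5.94, with the others at 6.48. Tgfb1i1 in Sox2-positive pool 2 was at 7.15, with the others at 6.43 to 6.53. Ltbp4 in Sox2-negative pool 4 was at 6.92, with the others at 6.61 to 6.66. Among dim ligands, Inhbe in Sox2-positive pool 1 was at 5.86 (others 5.23 to 5.29), Gdf2 in Sox2-negative pool 4 at 5.90 (others 5.64 to 5.68) and Bmp10 in Sox2-positive pool 2 at 5.16 (others 5.51 to 5.55). Bmp7 and Tgfb1i1 kept their call without each of these arrays, and Ltbp4 passed the test without its outlying array (limma adjusted p = 0.0208).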

How the results depend on the processing

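Of the 9 members that rose, Bmp7, Bmp4, Tgfb1i1, Fstl5 and Bmp1 kept their call under all 14 alternatives. Chrdl1 and Fstl4 kept it under all 13 in which they were tested, since both fell below the limit on dim genes. Smad5 lost its call under 5 and Tgfbrap1 under 8. No direction of a called gene was reversed. The count of lower members moved from 0 to 2 with the replicate block (Chrd and Ltbp3), to 2 with quantile normalization (Acvr2a and Ltbp3) and to 2 with dimmer genes left out (the same pair), and was 0 to 1 when 1 array was left out. By role, receptors had 1 lower with quantile normalization and 1 with dimmer genes left out. Extracellular regulators had 2 lower with the block, 1 with quantile normalization, 1 with dimmer genes left out, and 0 to 1 when 1 array was left out. Leaving out 1 array gave 0 to 1 higher SMAD genes, 0 to 1 higher targets and 1 to 2 higher associated proteins (1 with quantile normalization). The wider genes had 7 higher with the block and 2 to 4 when 1 array was left out. Over all genes, 847 were lower with quantile normalization and 768 with the block, against 558 in the main fit. This count was 309 to 591 when 1 array was left out (309 without Sox2-positive pool 2, 361 without pool 4 and 357 without Sox2-negative pool 1). Beyond Chrd, Ltbp3, Ltbp4 and the 5 wider genes given with it, the replicate block changed no call among the genes named. The causes were not tested. Members dim in both fractions (30 of 69) are those for which signal over background limits what can be seen.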

Other observations

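The order of the 4 pool numbers was the same in both fractions for 3 of the 69 members (4.35%), Bmp5, Fst and Id1, and for 5.76% of all genes. For Bmp5 the SD of the 4 differences between equal numbers was 0.16, against an SD of 0.90 between Sox2-positive pools, and the mean of the 2 fractions differed by 2.04 between the highest and the lowest number on the log2 scale.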
